A study of Mus musculus with 2 samples.

Results

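The cells described here come from injured and uninjured mouse hindlimb and passed limits for blood vessel endothelium. They carried Plvap or Aplnr transcripts and few transcripts of the genes used here to mark the other vessel segments. They were chosen by limits on unique molecular identifiers (UMIs, each counting 1 captured RNA molecule) in each cell barcode. A barcode needed 500 or more detected genes, at most 10% of UMIs from mitochondrial genes, 3 or more UMIs of Pecam1 and Cdh5 together, and at most 1 UMI of the lymphatic gene Prox1 and of the leukocyte gene Ptprc. Among these blood endothelial cells, a chosen cell had at most 2 UMIs of the arterial genes Gja5 and Sema3g, at most 2 of the venular genes Ackr1 and Selp, under 5 of the capillary genes Timp4 and Gpihbp1, and 5 or more of Plvap and Aplnr. These limits kept 114 of 17541 barcodes, 68 in the injured and 46 in the uninjured library. The levels of those 12 genes are therefore given only as a description.

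Plvap encodes the protein of the thin diaphragms that close endothelial fenestrae and caveolae, and its mRNA is abundant in permeable capillaries and venules. Aplnr encodes the receptor of the peptide apelin and is known from sprouting and venous endothelium in development and in wounds. New vessels grow from existing capillaries and veins by leading tip cells and dividing cells behind them, which lay down a new basement membrane while mature capillaries remain under the control of blood flow.

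The study used mice that were Hoxa11 wt/CreERT2 at the first locus, R26 wt/LSL-rtTA at the second, and carried TetO-Vegfd, in which cells of the Hoxa11 lineage, a limb lineage, can be made to express the lymphatic growth factor Vegfd. The injured library came from soft tissue around the Achilles tendon 7 days after a burn with tenotomy (cutting of the tendon), and the uninjured library from the opposite limb of burn/tenotomy mice. Both libraries thus carry the transgene and come from injured animals, male and female mice were operated at 8 to 12 weeks of age, and mice of the control genotype were not analysed here. The labels do not say whether a library pooled animals. Among the injured cells, 31 had Xist and no Y-linked UMIs and 23 the reverse, and among the uninjured cells 19 and 15, so each library held cells of both sexes. A group is 1 library, so injury cannot be tested. Intervals are exact 95% intervals and cover counting error only.

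The injured library held 10691 barcodes and 253050820 UMIs, of which 9366 barcodes passed the limits on genes and mitochondrial UMIs, and the uninjured library 6850 barcodes and 101685524 UMIs, of which 4760 passed. The libraries shared 19 barcode sequences, none of them among the chosen cells. Vegfd was at 93.7 CPM (UMIs per 1000000 UMIs) over all kept injured cells and 23.1 CPM over kept uninjured cells, and at 188 and 68.6 CPM in mesenchymal cells of the injured and uninjured library. The chosen cells held 8 Vegfd UMIs in the injured and 2 in the uninjured library, and 3 and 0 UMIs of Hoxa11, the gene whose locus carries CreERT2.

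Plvap rather than Aplnr brought most cells past the last limit. Plvap alone reached 5 UMIs in 58 of 68 injured and 38 of 46 uninjured cells. Aplnr alone did so in 29 of 68 injured cells (42.6%, 30.7 to 55.2%) and 7 of 46 uninjured cells (15.2%, 6.34 to 28.9%). Both genes reached it in 25 injured and 2 uninjured cells, and no Aplnr UMI was found in 13 injured and 21 uninjured cells. The uninjured cells therefore met the label mostly through Plvap. Summed over cells, Plvap (mm10, chr8:71497765-71511752, minus strand) was at 896 CPM (838 to 956) in injured cells and 1103 CPM (1019 to 1191) in uninjured cells, and Aplnr (chr2:85136225-85139923, plus strand) at 369.6 CPM (333 to 409) in injured cells and 163 CPM (132 to 199) in uninjured cells. The sum of both genes ran over 5, 13 and 82 UMIs (lowest, median, highest) in injured cells and 5, 10.5 and 76 in uninjured cells. Just inside the limit, 4 injured and 5 uninjured cells had exactly 5 UMIs. Just outside it, 5 injured and 11 uninjured cells had 4.

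**Figure D1:**
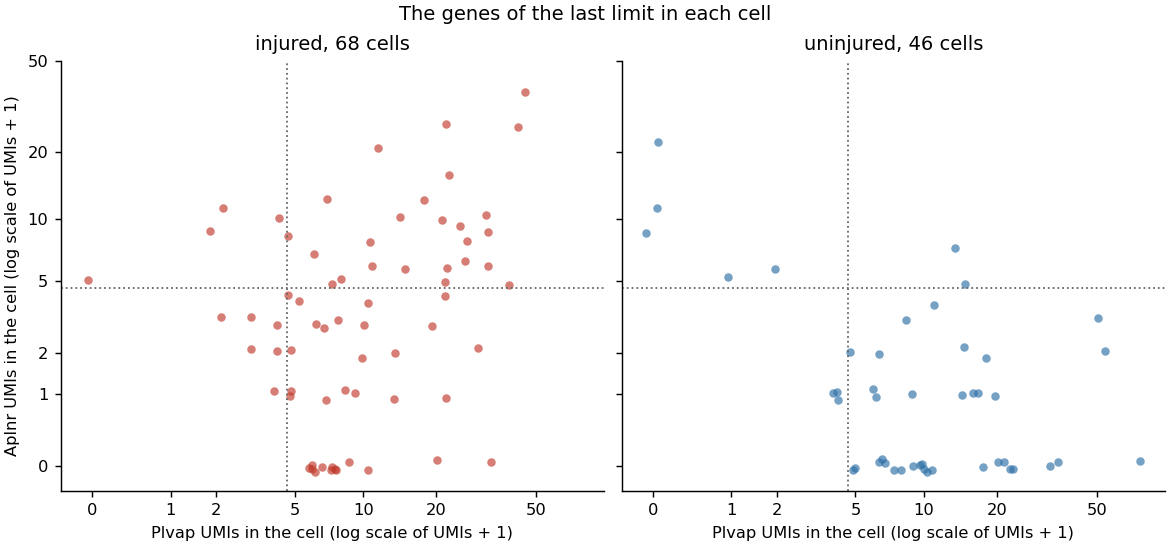
UMIs of Plvap (horizontal, log scale of UMIs + 1) and Aplnr (vertical, the same scale) in each chosen cell, injured library left and uninjured right, with a slight random shift so that cells do not hide each other. Dotted lines mark 5 UMIs. The upper right corner holds 25 of 68 injured cells and 2 of 46 uninjured cells, and the row at 0 Aplnr UMIs holds 13 and 21.

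The label's other markers were not used to choose cells. Emcn, an endothelial sialomucin of capillaries and veins (mm10, chr3:137341067-137432185, plus strand), was detected in 63 of 68 injured and 40 of 46 uninjured cells. Pcdh17, a protocadherin (chr14:84443563-84539002, plus strand), was detected in 50 of 68 injured and 25 of 46 uninjured cells. In immune cells of the same libraries, which should lack both, Emcn was detected in 6.87% of injured and 9.98% of uninjured cells and Pcdh17 in 8.48% and 10.3%, at median depths of 13042 and 15881 UMIs against 12262 and 9832 UMIs in the chosen cells. Emcn was at 769 CPM (716 to 825) in injured cells and 565 CPM (506 to 629) in uninjured cells. Pcdh17 was at 379.6 CPM (342 to 419.7) in injured cells and 179.8 CPM (147 to 218) in uninjured cells. After each cell was thinned to 2000 UMIs, Pcdh17 was found in 34 of 66 injured cells (51.5%) and 13 of 44 uninjured cells (29.5%), with 2 shallower cells left out of each library. These markers do not set the chosen cells apart from other endothelium, since Emcn was also at 653 and 505 CPM in cells past the Timp4 and Gpihbp1 limit and at 826 and 740 CPM in cells past the Ackr1 and Selp limit, in the injured and uninjured library. In lymphatic endothelial cells Emcn was at 497 CPM in the injured and 492 CPM in the uninjured library, and was detected in 91.0% and 90.6% of them.

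The rule sets no limit on fibroblast or tendon genes, and some of the chosen barcodes held many transcripts of fibroblasts or tendon. With a limit set after the values were seen, 100 or more UMIs of Col1a1, a fibroblast collagen, were found in 4 of 68 injured and 4 of 46 uninjured barcodes. They supplied 16.3% of the injured and 24.4% of the uninjured UMIs. The 4 uninjured ones had 247 to 409 Col1a1 UMIs and 0 UMIs of Emcn, Pcdh17, Kdr and Aplnr, so the label was not borne out in them. The 4 injured ones had 229 to 954 Col1a1 UMIs, and each held UMIs of Emcn, but only 1 to 6 of them. The barcode with 1 Emcn UMI had 727 UMIs of Col1a1 and 0 of Pcdh17, Kdr and Aplnr, so the label rests on few UMIs there. Counting 3 or more UMIs of a mural, fibroblast, tendon, glial or haemoglobin set, 15 injured and 18 uninjured barcodes carried another cell type's transcripts and supplied 35.04% of the injured and 61.02% of the uninjured UMIs. The other 53 injured and 28 uninjured barcodes, called low-marker cells here, still held Col1a1, at 126 and 34.8 CPM, with at most 6 and 2 UMIs in a barcode. Other cell types' markers still differed between the libraries in them. All 4 measured myeloid and lymphoid markers were at least 2-fold higher in injured cells. So were 2 of 2 keratinocyte, 3 of 5 mesenchymal and 2 of 3 lymphatic markers, with 0 lower in each. Of red cell markers 2 of 2, and of pericyte and smooth muscle markers 1 of 3, were at least 2-fold lower. Their part in the low-marker ratios was not tested. Counts for several other lists are also given below for the low-marker cells.

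The chosen cells made up 68 of 1446 injured blood endothelial cells (4.70%, 3.67 to 5.92%) and 46 of 2110 uninjured ones (2.18%, 1.60 to 2.90%). The difference was 2.52 percentage points (1.31 to 3.85). Among all kept barcodes the order was reversed, with overlapping intervals. The chosen cells were 0.726% (0.564 to 0.920%) of kept injured and 0.966% (0.708 to 1.29%) of kept uninjured barcodes. The limits are absolute UMI numbers and take no account of a cell's depth. The chosen cells had medians of 12262 and 9832 UMIs in the injured and uninjured library, against 27271 and 15927 UMIs for all blood endothelial cells. Far more endothelial cells reached 5 UMIs of Plvap and Aplnr than were chosen: 1067 of 1446 in the injured library (73.8%, 71.4 to 76.0%) and 669 of 2110 in the uninjured library (31.7%, 29.7 to 33.7%). The chosen cells were 6.37% and 6.88% of these. Within the Timp4 and Gpihbp1 gate, 336 of 406 injured cells (82.8%) and 377 of 1279 uninjured cells (29.5%) reached it, and within the Ackr1 and Selp gate 293 of 328 (89.3%) and 152 of 172 (88.4%).

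To take depth out of the choice, every endothelial cell was thinned to 5000 UMIs before the same limits were applied. Then 348 of 1289 injured cells (27.0%, 24.6 to 29.5%) and 96 of 1742 uninjured cells (5.51%, 4.49 to 6.69%) were chosen, with 110 and 266 shallower cells left out. These equal-depth cells share 29 injured and 26 uninjured cells with the first choice. At full depth, 28 of the 348 injured and 9 of the 96 uninjured cells lay outside the blood endothelial limits. Of the injured ones, 122 had been in the Timp4 and Gpihbp1 gate and 146 past the limits of several segments at full depth, and of the uninjured ones 22 and 16. Values from both choices of cells are given below. Levels in equal-depth cells are CPM of their full counts, so only the choice of cells was made at equal depth. Their median full depth was 38216 UMIs in injured and 16339.5 UMIs in uninjured cells. Markers of other cell types differed between the libraries in them. All 8 measured myeloid and lymphoid markers were at least 2-fold higher (median log2 ratio 2.603), with a summed level of 438 CPM in injured and 32.6 CPM in uninjured cells, and 5 of 8 measured mesenchymal markers were higher and 0 lower (median 2.204). Their part in the equal-depth ratios was not tested.

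**Figure D2:**
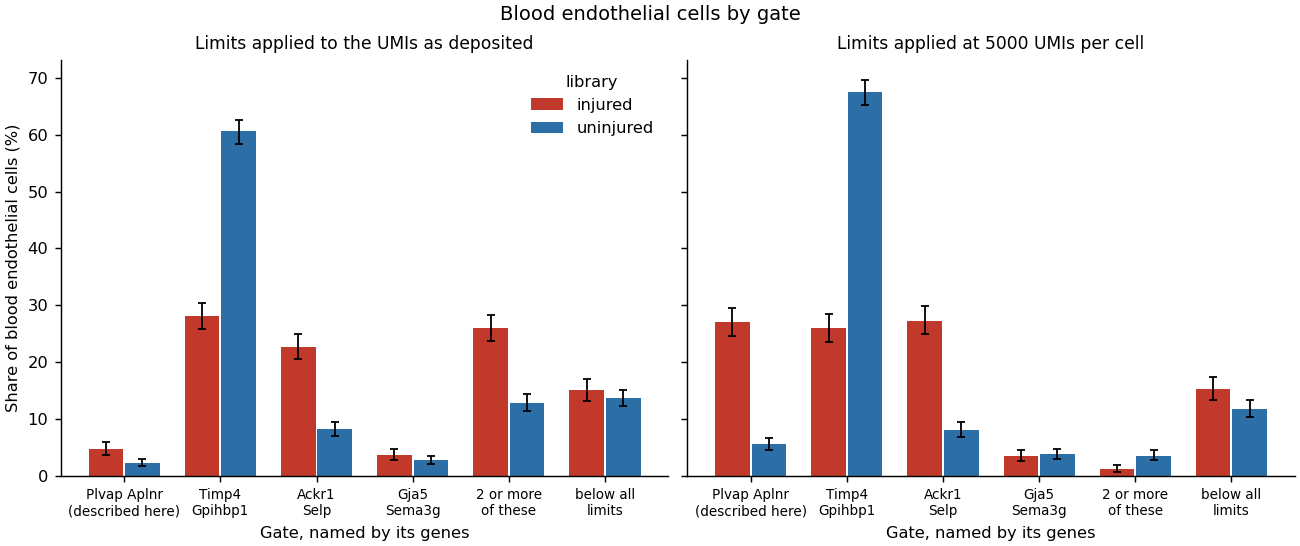
Share of blood endothelial cells (vertical, %) in each gate, injured bars left of uninjured bars, with exact binomial 95% intervals. Left, limits applied to UMIs as deposited. Right, limits applied at 5000 UMIs per cell, where the Plvap Aplnr gate holds 27.0% of injured and 5.51% of uninjured cells.

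UMIs were summed over the chosen cells of each library, 1003792 in the injured and 589540 in the uninjured library, and compared as log2 ratios of CPM, injured over uninjured, with 5 CPM added to both. Of 9188 genes with a mean of 10 CPM or more, 765 (8.33%) were at least 2-fold higher and 651 (7.09%) at least 2-fold lower in the injured cells, and the median log2 ratio was 0.10. In equal-depth cells, 326 of 8917 genes (3.66%) were at least 2-fold higher and 422 (4.73%) at least 2-fold lower. In low-marker cells, 1207 of 8699 genes (13.9%) were at least 2-fold higher and 664 (7.63%) at least 2-fold lower. The deepest cell supplied 6.25% of injured and 9.5% of uninjured UMIs.

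Part of the genes of sprouting endothelium were higher in the injured cells. Of 20 measured genes on the tip cell and sprouting list, 9 were at least 2-fold higher and 0 at least 2-fold lower, with a median log2 ratio of 0.98. In equal-depth cells, 6 of 21 were higher and 0 lower, with a median of 0.62, and in low-marker cells 9 of 20 were higher and 2 lower, with a median of 0.81. Marcksl1, an actin-binding regulator of the cell surface, was at 143 CPM (120.1 to 168) in injured cells and 8.48 CPM (2.75 to 19.8) in uninjured cells, and was detected in 39 of 68 injured and 4 of 46 uninjured cells. Fscn1, which bundles actin in cell protrusions, was at 226 CPM (198 to 258) in injured cells and 76.3 CPM (55.7 to 102) in uninjured cells, and in equal-depth cells at 219.8 CPM in injured and 83.7 CPM in uninjured cells. Trp53i11, a tip-cell transcript, had a log2 ratio of 1.84 and of 0.53 at equal depth. Mcam, an adhesion molecule, had values of 0.98 and 0.78.

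The cells are labelled angiogenic. Several of the best-known tip-cell transcripts were found in few of them. Most uninjured UMIs of Apln came from 1 cell, and most of those of Angpt2 from a different cell. Apln, the ligand of Aplnr, was detected in 7 of 68 injured and 9 of 46 uninjured cells, at 55.8 CPM (42.1 to 72.5) in injured cells and 79.7 CPM (58.6 to 106) in uninjured cells. Of the uninjured UMIs 63.8% came from 1 cell. Without the UMIs of the highest cell of each library, Apln was at 40.9 CPM in injured and 28.8 CPM in uninjured cells, the reverse order. In the other choices of cells Apln stayed lower in injured cells, with log2 ratios of -0.28 at equal depth and -1.18 in low-marker cells. Esm1, a secreted proteoglycan of tip cells, had 13 UMIs in 7 injured cells and 0 UMIs in the uninjured cells, but lay at 25.7 CPM in injured and 31.2 CPM in uninjured cells at equal depth, where the order is reversed. Angpt2, which loosens vessels through the Tie2 receptor, was at 57.8 CPM (43.9 to 74.7) in injured cells and 16.96 CPM (8.13 to 31.2) in uninjured cells, with 52.1 CPM in injured and 42.3 CPM in uninjured cells at equal depth. Its uninjured level rests on 10 UMIs, 70.0% of them from 1 cell that also held 109 UMIs of the pericyte gene Rgs5. Dll4, the Notch ligand of tip cells, was at 53.8 CPM (40.4 to 70.2) in injured cells and 27.1 CPM (15.5 to 44.1) in uninjured cells. Pdgfb, which recruits pericytes, was near equal at 190.3 CPM (164 to 219) in injured cells and 182 CPM (149 to 219) in uninjured cells.

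Genes spread over many cells were picked by a rule added after the values were seen, namely at least 40% of the cells of the higher library with a UMI and no more than 25% of its UMIs from any cell. Of 3055 such genes at 50 CPM or more, 230 (7.53%) were at least 2-fold higher and 96 (3.14%) at least 2-fold lower in the injured cells. The 12 with the highest ratios are given here, of which Marcksl1 is described above. Mest, an imprinted gene of embryonic mesoderm, was at 440.3 CPM (400.2 to 483) in injured cells and 50.9 CPM (34.3 to 72.6) in uninjured cells. It was detected in 52 of 68 injured and 10 of 46 uninjured cells, and lay at 562 CPM in injured and 36.3 CPM in uninjured cells at equal depth. The membrane metalloproteases Adam12 and Adam19 showed the same order. Adam12 was at 262 CPM (231 to 296) in injured cells and 32.2 CPM (19.4 to 50.3) in uninjured cells, and Adam19 at 170.4 CPM (146 to 198) in injured cells and 5.09 CPM (1.05 to 14.9) in uninjured cells. At equal depth, Adam12 was at 143 CPM in injured and 25.1 CPM in uninjured cells and Adam19 at 58.5 CPM in injured and 13.95 CPM in uninjured cells. Cd276, a B7-family surface protein, was at 82.7 CPM (65.9 to 103) in injured cells and 10.2 CPM (3.74 to 22.2) in uninjured cells, and at equal depth at 71.6 CPM in injured and 3.72 CPM in uninjured cells. Lgmn, a lysosomal protease, was at 293 CPM (260.4 to 328) in injured cells and 40.7 CPM (26.1 to 60.6) in uninjured cells. Tfpi, which inhibits the start of coagulation, was at 80.7 CPM (64.1 to 100.3) in injured cells and 11.9 CPM (4.77 to 24.5) in uninjured cells. Piezo2, a mechanically gated channel, was at 365 CPM (328 to 404) in injured cells and 28.8 CPM (16.8 to 46.2) in uninjured cells, and Tspan18, a tetraspanin, had a log2 ratio of 2.72. Their equal-depth log2 ratios were 0.93 and 0.68, below the 2-fold line. The remaining ones were Klhl6, N4bp3 and Xylt1, with log2 ratios of 2.595, 2.55 and 2.398, and of 1.54, 1.05 and 1.19 at equal depth. Some of the 12 were higher in other injured cell classes than in the chosen cells. Lgmn was at 1260 CPM in immune cells, Marcksl1 and Xylt1 at 494 and 571 CPM in neutrophils, and Adam12 at 400.1 CPM in mesenchymal cells. The others of the 12 were below their chosen-cell level in each injured class gated outside blood endothelium. The part of such cells in these ratios was not tested.

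**Figure D3:**
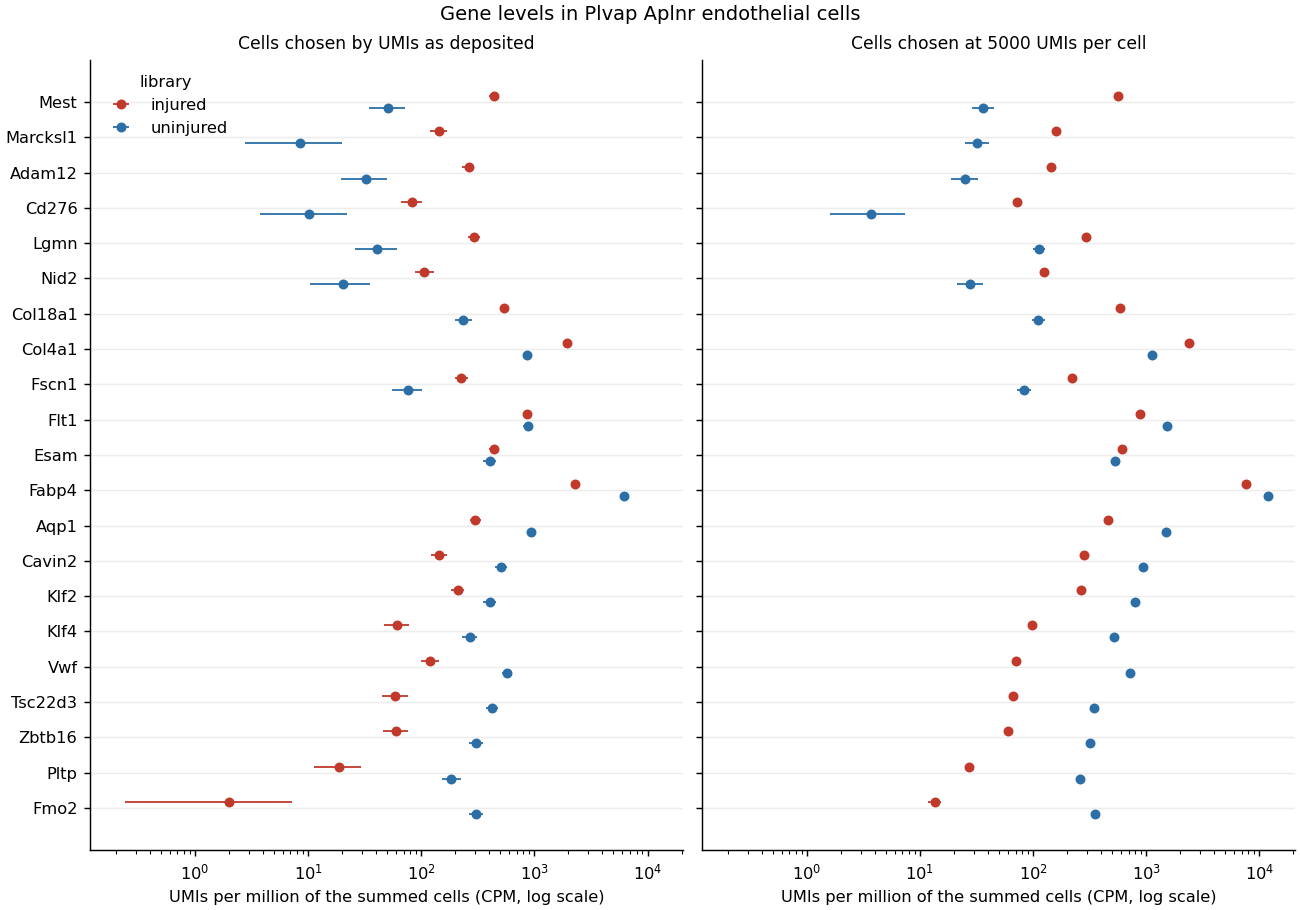
Levels of 21 genes (horizontal, CPM on a log scale) in the injured (red, upper point) and uninjured cells (blue, lower point), with exact Poisson 95% intervals. Left, the 68 and 46 cells chosen on UMIs as deposited. Right, the 348 and 96 cells chosen at 5000 UMIs. The genes from Mest to Fscn1 lie higher in injured cells and those from Fabp4 to Fmo2 lower in both panels.

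Several vascular basement membrane genes were higher in the injured cells. Of 14 genes, 5 were at least 2-fold higher and 2 at least 2-fold lower (median log2 ratio 0.72), in equal-depth cells 4 and 1 (median 0.78), and in low-marker cells 4 and 0 (median 0.76). Col4a1, a chain of the collagen IV network, was at 1928 CPM (1843 to 2016) in injured cells and 860.0 CPM (787 to 938) in uninjured cells. Col18a1, the source of endostatin, was at 540.0 CPM (495 to 587) in injured cells and 236 CPM (198 to 278) in uninjured cells, and at equal depth at 590.1 CPM in injured and 112 CPM in uninjured cells. Nid2, which links laminin to collagen IV, was at 107 CPM (87.4 to 129) in injured cells and 20.4 CPM (10.5 to 35.6) in uninjured cells. The laminin chains Lama4 and Lamb1 had log2 ratios of 1.998 and 1.64, and 0.62 and 0.76 at equal depth. Lamb2, the laminin beta chain of mature membranes, was lower, at 32.9 CPM (22.6 to 46.2) in injured cells and 109 CPM (83.6 to 139) in uninjured cells. The other lower gene was Fn1, the fibronectin gene, at 392.5 CPM in injured and 1869 CPM in uninjured cells. Neither Lamb2 nor Fn1 was at least 2-fold lower in low-marker cells. In low-marker cells the log2 ratios were 1.72 for Nid2, 2.29 for Col18a1 and 0.84 for Col4a1. The matrix remodelling list had no shared order, with 3 of 13 genes higher and 2 lower (median -0.185) and a summed level of 1841 CPM in injured and 2588 CPM in uninjured cells. At equal depth 4 of 13 were higher and 2 lower (median 0.61), and in low-marker cells 5 of 12 and 1 (median 0.81). Of its members, Mmp14, a membrane-bound matrix protease, was at 244 CPM (215 to 277) in injured cells and 137 CPM (109 to 171) in uninjured cells, and at equal depth at 263 CPM in injured and 73.5 CPM in uninjured cells. Plaur, the urokinase receptor, was at 113 CPM (92.8 to 135) in injured cells and 8.48 CPM (2.75 to 19.8) in uninjured cells, with 55.8% of the injured UMIs from 1 cell.

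Proliferation genes were detected in a larger share of the injured cells. At least 1 UMI of Mki67 or Top2a, genes of proliferating cells, was found in 29 of 68 injured cells (42.6%) and 3 of 46 uninjured cells (6.52%). At 2000 UMIs per cell, the shares were 14 of 66 injured cells (21.2%, 12.1 to 33.0%) and 2 of 44 uninjured cells (4.55%, 0.56 to 15.5%), with overlapping intervals. Injured neutrophils, mature cells that do not divide, gave 2.81% at the same depth. At least 3 UMIs were found in 12 injured and 2 uninjured cells. Of 18 measured cell cycle genes, 7 were at least 2-fold higher and 0 at least 2-fold lower (median 0.66), and at equal depth 9 of 20 were higher and 0 lower (median 0.81). In low-marker cells 4 of 19 were higher and 1 lower (median 0.26). Mki67 was at 109.6 CPM (90.1 to 132) in injured cells and 23.8 CPM (12.98 to 39.8) in uninjured cells, and the mitotic genes Cenpf and Ccnb2 had log2 ratios of 3.0 and 2.48. All UMIs of Cenpf and 64.3% of those of Mki67 in the uninjured library came from 1 cell. The replication genes Pcna and Mcm6 did not share this order, with log2 ratios of -0.36 and -0.93.

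Receptors of the vascular growth factors gave no shared order over both choices of cells. Kdr, the main VEGF receptor, was at 388 CPM (350.0 to 428) in injured cells and 210.3 CPM (175 to 251) in uninjured cells, but at 462 CPM in injured and 481 CPM in uninjured cells at equal depth. Flt1, its decoy receptor, was at 858 CPM (801 to 917) in injured cells and 872 CPM (798 to 951) in uninjured cells, and at equal depth at 875 CPM in injured and 1526 CPM in uninjured cells. Flt4, the receptor of Vegfd and Vegfc, was at 54.8 CPM (41.3 to 71.3) in injured cells and 20.4 CPM (10.5 to 35.6) in uninjured cells, against 32.8 CPM in injured and 36.3 CPM in uninjured cells at equal depth, where the order is reversed. The coreceptors Nrp1 and Nrp2 had log2 ratios of 0.66 and 0.65, and of -0.82 and -0.37 at equal depth. Of 6 measured genes of this list, 1 was at least 2-fold higher and 0 lower. At equal depth 0 of 7 were higher and 1, Vegfc, was lower, with 11.4 CPM in injured and 67.9 CPM in uninjured cells.

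In the angiopoietin, Notch and BMP families few genes passed a 2-fold difference in the first choice of cells. Tek, the angiopoietin receptor Tie2, and Eng, a coreceptor of BMP ligands, were at log2 ratios of 0.07 and 0.04. Ptprb, the phosphatase that restrains Tie2, was at -0.34, and at -1.44 at equal depth. Among 10 Notch genes 1 was higher and 0 lower (median 0.23), and at equal depth 1 and 1 (median -0.21). Notch1 was at 0.09 and its target Hes1 at -0.71. Among 13 BMP and TGF-beta genes 0 were higher and 2 lower (median -0.19), and the lower ones were ligands. Bmp4 was at 8.97 CPM (4.1 to 17.02) in injured cells and 100.1 CPM (76.2 to 129) in uninjured cells, and Bmp6 at 10.96 CPM (5.47 to 19.6) in injured cells and 67.9 CPM (48.5 to 92.4) in uninjured cells, with equal-depth log2 ratios of -2.48 and -1.78. Their targets Id1 and Id3 were at -0.19 and -0.19. In low-marker cells 2 of 13 BMP and TGF-beta genes were higher and 3 lower (median -0.45). For Notch these counts were 0 and 1 of 9 (median -0.06), and for the angiopoietin list 1 and 0 of 4 (median 0.19).

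**Figure D4:**
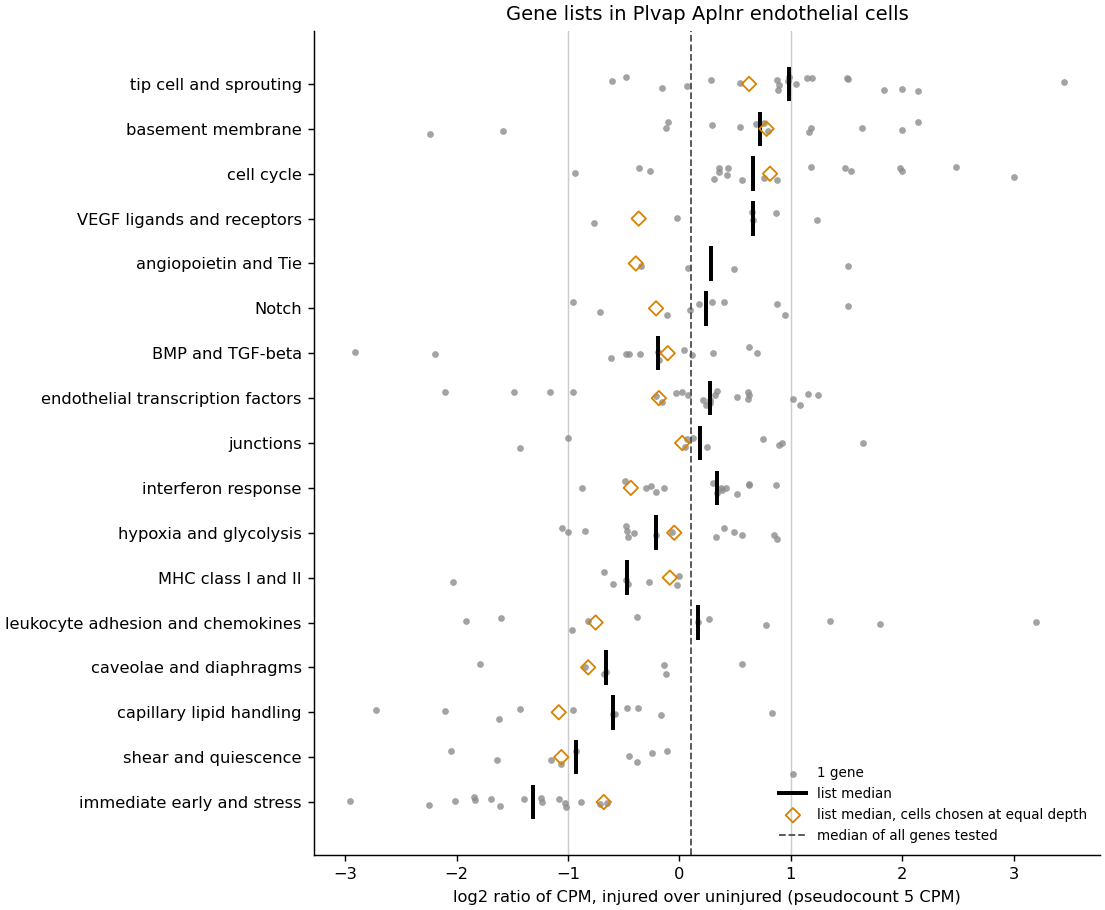
Log2 ratio of CPM, injured over uninjured (horizontal), of each measured gene (grey points) in 17 lists, with the list median (black bar), the median at equal depth (open diamond) and the median of all genes tested (dashed line, 0.10). Medians of the sprouting, basement membrane and cell cycle lists lie right of the dashed line in both choices of cells, and those of the caveolae, lipid handling, flow and immediate early lists left of it.

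Several genes of mature capillaries were lower in the injured cells. Of 11 measured genes of capillary lipid handling outside the rule, 0 were at least 2-fold higher and 4 at least 2-fold lower (median -0.60), at equal depth 0 and 6 (median -1.08), and in low-marker cells 0 and 8 of 10 (median -1.34). Fabp4, a fatty acid carrier of capillaries, was at 2309 CPM (2216 to 2405) in injured cells and 6237 CPM (6037 to 6442) in uninjured cells, and was detected in 64 of 68 injured and 46 of 46 uninjured cells. Aqp1, a water channel, was at 301 CPM (268 to 337) in injured cells and 936 CPM (859.8 to 1018) in uninjured cells. Meox2, a transcription factor of capillaries that handle fatty acids, was at 42.8 CPM (31.0 to 57.7) in injured cells and 200.2 CPM (166 to 239.7) in uninjured cells. Cd36, the fatty acid translocase, was at 541 CPM (496 to 588) in injured cells and 823 CPM (751 to 899) in uninjured cells, short of the 2-fold line, and at 749 CPM in injured and 1593 CPM in uninjured cells at equal depth. Rgcc, a cell cycle regulator of capillaries, did not follow them, at 0.83 and 0.33. The cells were chosen for few Timp4 and Gpihbp1 transcripts, so the libraries were compared only on other genes of this type.

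Caveolar coat genes were uneven. Cavin2, which shapes caveolae in endothelium, was at 144 CPM (121 to 169) in injured cells and 509 CPM (453 to 569.8) in uninjured cells. Cavin1, the general coat protein, had log2 ratios of -0.84 and -1.28 (equal depth), while Cav1, the main caveolin, had -0.14 and -0.56 and Cavin3 had 0.56 and 0.52. Of 7 such genes 0 were higher and 1 was lower (median -0.66), and at equal depth 0 and 2 (median -0.82). Among 10 measured junction genes, 1 was higher and 2 lower (median 0.19), and the lower ones were the adhesion molecules Jam2, at 105 CPM (85.6 to 127) in injured cells and 290.1 CPM (248 to 337) in uninjured cells, and Jam3, at -1.002 on the log2 scale. At equal depth 1 was higher and 2 lower (median 0.02). Esam and Tjp1 were near equal, at 0.12 and 0.25.

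Several genes held up by laminar flow and rest were lower. Of 9, 0 were at least 2-fold higher and 4 at least 2-fold lower (median -0.93), at equal depth 0 and 5 (median -1.06), and in low-marker cells 0 and 5 (median -1.08). Klf4, a flow-induced transcription factor, was at 60.8 CPM (46.5 to 78.1) in injured cells and 268 CPM (228 to 313) in uninjured cells, and at equal depth at 98.1 CPM in injured and 524 CPM in uninjured cells. Klf2, its relative, was at 210.2 CPM (183 to 241) in injured cells and 404 CPM (354 to 458) in uninjured cells, and at equal depth at 267 CPM in injured and 795 CPM in uninjured cells. Their target Thbd, the anticoagulant receptor thrombomodulin, was at 95.6 CPM (77.5 to 117) in injured cells and 205 CPM (170.3 to 245) in uninjured cells. Txnip, an inhibitor of glucose uptake, and Cdkn1a, an inhibitor of the cell cycle, had log2 ratios of -1.16 and -1.64. Nos3, the endothelial nitric oxide synthase, was nearer to equal at -0.25.

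Vwf, the adhesive protein of endothelial granules, was at 119.5 CPM (99.1 to 143) in injured cells and 573 CPM (514 to 638) in uninjured cells, and was detected in 21 of 68 injured and 29 of 46 uninjured cells. At 2000 UMIs per cell it was found in 8 of 66 injured cells (12.1%, 5.38 to 22.5%) and 23 of 44 uninjured cells (52.3%, 36.7 to 67.5%). In equal-depth cells Vwf was at 71.3 CPM in injured and 717 CPM in uninjured cells. Vwf is on the list of venular markers, as are Icam1, Vcam1 and Sele below. Of its 8 measured genes outside the rule, 1 was at least 2-fold higher and 3 at least 2-fold lower (median -0.46). At equal depth 0 were higher and 3 lower (median -0.86), and in low-marker cells 1 and 5 (median -1.46). The list summed to 872 CPM in injured and 1700 CPM in uninjured cells. Arterial markers outside the rule summed to 1759 CPM in injured and 1140 CPM in uninjured cells, against 1141 and 1168 CPM in the Timp4 and Gpihbp1 gate. Of 8 measured arterial markers, 2 were at least 2-fold higher and 1 at least 2-fold lower (median 0.75). At equal depth 2 were higher and 1 lower (median 0.24), and in low-marker cells 3 of 7 and 0 (median 0.69).

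Of the 96 spread genes that were lower, the 12 with the lowest ratios are given here. Fmo2, a flavin-containing monooxygenase, stood lowest at 1.99 CPM (0.241 to 7.197) in injured cells and 305 CPM (262 to 353) in uninjured cells. It was detected in 2 of 68 injured and 31 of 46 uninjured cells, and was at 13.5 CPM in injured and 356 CPM in uninjured cells at equal depth. Tsc22d3 and Zbtb16, a pair of genes known to respond to glucocorticoids, were also lower. Tsc22d3 was at 58.8 CPM (44.7 to 75.8) in injured cells and 424 CPM (373 to 480.0) in uninjured cells, and Zbtb16 at 59.8 CPM (45.6 to 76.9) in injured cells and 305 CPM (262 to 353) in uninjured cells. At equal depth their log2 ratios were -2.29 and -2.33. Pltp, a phospholipid transfer protein, was at 18.9 CPM (11.4 to 29.6) in injured cells and 185 CPM (152 to 223) in uninjured cells, and Ccnd2, the cyclin D2 gene, at 26.9 CPM (17.7 to 39.1) in injured cells and 231 CPM (194 to 273) in uninjured cells. Ccn2, a matricellular protein, was at 44.8 CPM (32.7 to 59.99) in injured cells and 986 CPM (907 to 1069) in uninjured cells, and at equal depth at 85.9 CPM in injured and 231 CPM in uninjured cells. Mesenchymal cells held Ccn2 at 306 CPM in the injured and 819 CPM in the uninjured library, and their part in its ratio was not tested. Its log2 ratio was 0.82 in the Timp4 and Gpihbp1 gate and -0.40 in the Ackr1 and Selp gate. The remaining ones of these were Rab27a, Rflnb, Nuak1, Net1, Emp2 and Prkag2, with log2 ratios from -3.07 (Rab27a) to -2.47 (Prkag2), and from -3.56 (Nuak1) to -1.01 (Rflnb) at equal depth.

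Immediate early genes, whose mRNA appears within minutes of a stimulus, were lower as a group. Of 16, 13 were at least 2-fold lower and 0 higher (median -1.32), at equal depth 4 were lower and 0 higher (median -0.68), and in low-marker cells 10 were lower and 0 higher (median -1.27). Fos was at 129.5 CPM (108 to 154) in injured cells and 1040.0 CPM (959 to 1125) in uninjured cells, with 30.3% of uninjured UMIs from 1 cell, and at equal depth at 409.7 CPM in injured and 1239 CPM in uninjured cells. Jun, its partner, had log2 ratios of -1.395 and -0.89, and Zfp36, which destabilises mRNA, of -2.01 and -1.42. The share of mitochondrial UMIs, a sign of cell condition, also differed, with medians of 3.54% in injured and 5.85% in uninjured cells, and its part in these ratios was not tested.

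Inflammatory and antigen genes gave smaller or mixed differences in the first choice of cells and at equal depth. Of 11 measured leukocyte adhesion and chemokine genes outside the rule, 3 were higher and 2 lower (median 0.17), and at equal depth 1 of 13 was higher and 5 were lower (median -0.75). Icam1 and Vcam1, which bind leukocyte integrins and are on the venular list above, were lower. Icam1 was at 49.8 CPM (36.97 to 65.7) in injured cells and 161 CPM (130.4 to 197) in uninjured cells, and Vcam1 at 25.9 CPM (16.9 to 37.95) in injured cells and 112 CPM (86.6 to 142) in uninjured cells, while Sele, E-selectin, was detected in 11 of 68 injured and 2 of 46 uninjured cells. Of 15 interferon response genes 0 passed the 2-fold line either way (median 0.33), and at equal depth 0 were higher and 1, the GTPase gene Iigp1, was lower (median -0.44). H2-T23, a nonclassical MHC class I gene, was the 1 lower gene of 8 measured MHC genes (median -0.47), at 23.9 CPM (15.3 to 35.6) in injured cells and 114 CPM (88.1 to 144) in uninjured cells, and at equal depth 1 of 10 was lower (median -0.09). In low-marker cells 3 of 9 MHC genes were lower and 0 higher (median -0.95). There, 3 of 11 leukocyte adhesion and chemokine genes were higher and 3 lower (median -0.51), and 1 of 15 interferon genes was higher and 1 lower (median -0.25). Of 15 hypoxia and glycolysis genes 0 were higher and 2 lower (median -0.21), and at equal depth 1 of 17 was higher and 4 were lower (median -0.05). Pkm, a glycolytic enzyme, had log2 ratios of 0.87 and 1.17. Endothelial identity factors were near equal, with Erg at 0.08 and Sox18 at 0.33, whereas Ets1 and Sox4 were at 1.08 and 1.15. Of 23 transcription factors 4 were higher and 3 lower (median 0.27), whereas at equal depth 1 of 25 was higher and 4 were lower (median -0.19).

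Many of the genes with the most extreme ratios were found in few of the chosen cells. The named genes were the 12 highest and the 12 lowest ratios among genes at 50 CPM or more. Besides Adam19, Marcksl1 and Piezo2, the high end held Kit, a receptor tyrosine kinase found in 25 of 68 injured and 2 of 46 uninjured cells, at 101 CPM (81.96 to 122) in injured cells and 5.09 CPM (1.05 to 14.9) in uninjured cells, and in equal-depth cells at 56.5 CPM in injured and 2.79 CPM in uninjured cells. AA467197 was detected in 27 injured cells and had 0 uninjured UMIs, at least 15.9-fold higher against a limit of 3 counts per library. Nts, the neuropeptide precursor neurotensin, was found in 8 injured cells and had 0 uninjured UMIs, at least 18.2-fold higher on the same limit, and lay at 87.2 CPM in injured and 13.95 CPM in uninjured cells at equal depth. Tgfb2, a TGF-beta ligand, and Kcnq1, a potassium channel, were found in 23 and 14 injured cells, with log2 ratios of 3.37 and 3.28 and of 1.203 and 0.43 at equal depth. For Smoc2, Ccl7, Sfrp4 and Dkk2, between 77.2% (Dkk2) and 93.1% (Sfrp4) of injured UMIs came from 1 cell.

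At the low end, besides Fmo2, several genes are known from tendon cells. Scx, the tendon transcription factor, was at 0.996 CPM (0.0252 to 5.55) in injured cells and 349 CPM (303 to 401) in uninjured cells, and Tnmd, the tendon membrane protein tenomodulin, at 5.98 CPM (2.19 to 13.01) in injured cells and 507 CPM (451 to 568) in uninjured cells. Thbs4, a tendon matrix protein, was at 40.9 CPM (29.3 to 55.4) in injured cells and 1365 CPM (1273 to 1463) in uninjured cells. These genes were found in 7, 8 and 9 of the 46 uninjured cells. Col22a1, Chodl, Ptx4, Fat3 and Tnfrsf11b had 0 injured UMIs and were found in 4 to 7 uninjured cells. In equal-depth cells the order was reversed for Scx and Tnmd, with Scx at 7.29 CPM in injured and 0.465 CPM in uninjured cells and Tnmd at 14.9 CPM in injured and 1.395 CPM in uninjured cells. Cytl1, a secreted protein, differed from these, with 0 injured UMIs and 6 uninjured cells at 127 CPM, and 1.59 CPM in injured and 105 CPM in uninjured cells at equal depth. Crispld1 was found in 2 of 68 injured and 11 of 46 uninjured cells and Mt2, a metallothionein, in 5 of 68 injured and 11 of 46 uninjured cells.

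Transcripts of other cell types were present in part of the chosen cells. At least 3 UMIs of mural genes were found in 11 of 68 injured and 6 of 46 uninjured cells, of fibroblast genes in 5 and 9, of tendon genes in 1 and 7, and of haemoglobin genes in 4 and 10. Summed over all 12 mesenchymal markers, all of them detected in both libraries, the level was 8856 CPM in injured and 9813 CPM in uninjured cells, and ranged over single cells between 0 and 106501 CPM in the injured and 0 and 49720 CPM in the uninjured library. The 12 pericyte and smooth muscle markers summed to 576 and 555 CPM, with Cspg4 at 0 in injured cells. The 15 myeloid and lymphoid markers summed to 176 and 47.5 CPM, with Cd3e at 0 in both libraries. The 5 red cell markers summed to 2020 and 105 CPM, and 83.5% of the injured UMIs came from 1 cell. The 6 keratinocyte markers summed to 60.8 CPM and were all at 0 in uninjured cells, and the 7 muscle markers to 4.98 and 6.78 CPM with Pax7 at 0 in both. The 8 lymphatic markers summed to 444 and 305 CPM, and 57.0% of the injured UMIs came from 1 cell. In equal-depth cells Col1a1 was at 1007 CPM in injured and 96.7 CPM in uninjured cells. The part of these transcripts in the endothelial ratios was not tested. In low-marker cells the log2 ratios were 3.55 for Mest, 4.302 for Marcksl1, -3.05 for Klf4 and -5.68 for Fmo2.

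Among themselves, the chosen cells differed with Aplnr. Injured cells with Aplnr UMIs (55 cells, median 12606 UMIs) had Emcn at 939 CPM and Flt1 at 1049 CPM, against 182 and 195 CPM in the 13 injured cells without (median 4371 UMIs). Col1a1 was at 1675 CPM in the injured cells with Aplnr and 5957 CPM in those without. In the uninjured library, the 25 cells with Aplnr had Flt1 at 1409 CPM, Cd36 at 1437 CPM and Vwf at 347 CPM, against 467, 360 and 744 CPM in the 21 cells without, at medians of 9484 and 10224 UMIs. Col1a1 was at 150.0 CPM in the uninjured cells with Aplnr and 3962 CPM in those without, which hold the 4 barcodes with many Col1a1 UMIs, and Rgs5 was at 82.9 and 345 CPM. The part of these other cell types in the Aplnr split was not tested. Emcn did not differ in that way among uninjured cells, at 553 CPM with and 574 CPM without Aplnr. In both libraries Flt1, a VEGF receptor, was higher in cells with Aplnr.

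The 12 injured cells with 3 or more Mki67 and Top2a UMIs were at 202 CPM of Aplnr, 22.4 CPM of Aqp1 and 144 CPM of Angpt2. That Angpt2 level rests largely on 1 cell with 20 UMIs, and no other of the 12 held more than 5. The other 56 injured cells were at 417 CPM of Aplnr, 380 CPM of Aqp1 and 33.3 CPM of Angpt2. Col1a1 was at 94.2 CPM in the cells with 3 or more and 3362 CPM in the rest. These groups were formed on measured counts and are described without a test.

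Several of the ratios were shared with the neighbouring capillary and venular cells of the same libraries. Mest had log2 ratios of 2.99 in the chosen cells, 2.83 in the Timp4 and Gpihbp1 gate and 2.16 in the Ackr1 and Selp gate, and Fmo2 had -5.47, -2.48 and -2.72. Klf4 was lower in all of these gates, at -2.05, -2.36 and -1.41. Col4a1 was at 1.16 in the chosen cells and 1.61 in the Ackr1 and Selp gate, but at -0.14 in the Timp4 and Gpihbp1 gate. Mki67 showed the same arrangement, at 2.00, 2.29 and -0.11. The cell cycle list did not, with medians of 0.66 in the chosen cells, 1.78 in the Ackr1 and Selp gate and 0.55 in the Timp4 and Gpihbp1 gate. Plvap, although a gene of the rule, was at 1320 and 166 CPM in injured and uninjured cells of the Timp4 and Gpihbp1 gate, whose cells were not chosen on Plvap. Whether a ratio differs between gates was not tested, because each gate has 1 library per group.

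**Figure D5:**
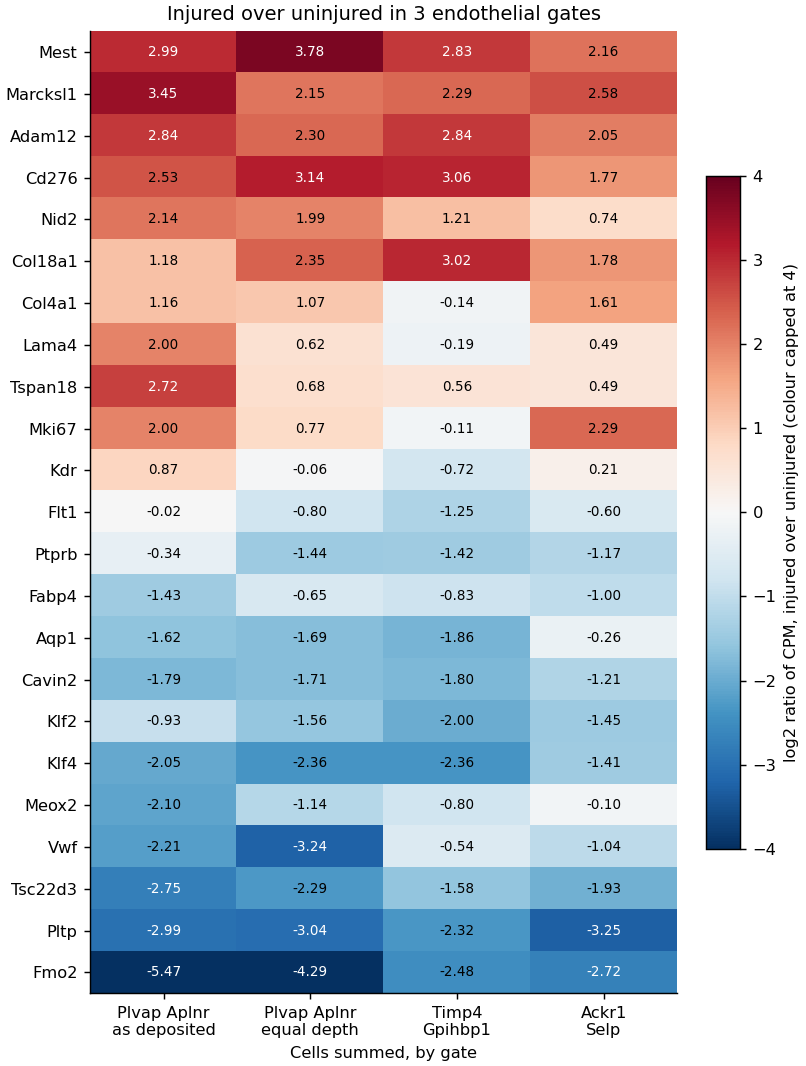
Log2 ratio of CPM, injured over uninjured, of 23 genes (rows) in the chosen Plvap Aplnr cells, in those chosen at equal depth, and in the capillary (Timp4 Gpihbp1) and venular (Ackr1 Selp) gates (columns). Red is higher and blue lower in injured cells, with the value printed in each field. Mest and Marcksl1 are above 2 and Pltp and Fmo2 below -2 in all 4 columns, while Col4a1 and Mki67 are near 0 in the capillary gate.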

How the data were processed

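Per the file headers and values, the authors deposited raw UMI counts per gene and barcode for 2 droplet single-cell 3-prime RNA libraries. Per the submitters' processing notes, Cell Ranger 5.0.1 and the mm10 genome were used, and how cells were called is not given there. The labels' protocols name collagenase and dispase digestion. Cells were filtered and gated on UMI counts with the limits given in the report, in Python 3.11.15 with scipy 1.17.1. Counts of the chosen cells were summed per library and scaled to CPM. Log2 ratios used a pseudocount of 5 CPM, and genes with a mean of 10 CPM or more were counted. A gene was called at a 2-fold difference, since 1 library per group allows no test. Shares have Clopper-Pearson and sums exact Poisson 95% intervals. Ratios against 0 UMIs used a limit of 3 counts. The 12 highest and 12 lowest ratios among genes at 50 CPM or more in a library were named, leaving out genes of the rule, sex-linked, immunoglobulin, haemoglobin, ribosomal and mitochondrial genes, unnamed models and genes under 0.2 of their highest level in another cell class of that library. Scrublet (scanpy 1.11.5) marked 8 injured and 7 uninjured kept cells by itself, too few for a working threshold, and 215 and 60 at a score above 0.2, 1 chosen cell in each library. Doublets were left in except in an alternative. Summing and scaling were tested on simulated data. The cells and gene lists were chosen with earlier results of these data known. Gene positions come from the mm10 annotation. The level of the glial marker list is not reported here.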

Additional observations from a re-analysis of the deposited data

Results flagged for a closer look

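Scx, the tendon transcription factor, had a log2 ratio of 1.12, injured over uninjured, in cells of the Ackr1 and Selp gate, opposite to its ratio of -5.88 in the Plvap Aplnr cells. The difference between the gates was not tested, and 7 of 46 uninjured Plvap Aplnr cells held all Scx UMIs of that library's chosen cells.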

How the results depend on the processing

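The share of chosen cells among blood endothelial cells was higher in the injured library under all 11 other settings run. None of these settings took the share over all kept barcodes, where the main setting gave the reverse order. The difference of 2.52 percentage points was 21.5 with cells thinned to 5000 UMIs and 10.6 with limits per 10000 UMIs of the cell, and lay between 1.65 and 3.42 otherwise. The count of 765 genes at least 2-fold higher was 1264 in the Xist-only cells, 1542 in the Y-linked-only cells, 1207 without cells holding 3 or more UMIs of another cell type's genes, 326 at equal depth, 329 with a pseudocount of 20 CPM and 264 among genes at 50 CPM or more. The count of 651 genes at least 2-fold lower was 1288 in the Y-linked-only cells, 422 at equal depth, 387 with a pseudocount of 20 CPM, 1026 with no filter on low values and 232 among genes at 50 CPM or more. The first of these are counts over fewer cells and the last over other sets of genes. For the rest the cause was not tested. Scx was higher in injured cells without mural or fibroblast UMIs (0.32), at equal depth (1.17), with limits per 10000 UMIs (1.17) and in low-marker cells (0.39). Tnmd and Thbs4 were higher at equal depth (1.64 and 0.86) and with limits per 10000 UMIs (0.68 and 0.41), and Tnfrsf11b at equal depth (0.017). Esm1 and Flt4 were lower at equal depth (-0.24 and -0.13). None of the 24 spread genes changed direction under the 17 settings. They were picked for extreme ratios in these data, so a change of direction was unlikely beforehand. Of their 408 values, 69 moved outside the counting interval of the main ratio. Among the 24 named genes 155 of 408 values moved outside it in the same direction or without a called reversal, and 9 reversed. The limits per 10000 UMIs, the low-marker cells and the settings without the cell with most UMIs per gene and without shared barcodes were added after the data were seen. No paired analysis was possible because each group has 1 library. The depth of the chosen cells leaves genes under about 10 CPM to a few UMIs per library.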
